A study of Mus musculus with 8 samples.

Results

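The regions described here are 554 myogenin ChIP-seq intervals of differentiating C2C12 myoblasts that were chosen by 3 properties of the peak calls. Each was called in the control myogenin library, shared no base with any interval of the bexarotene myogenin library, and had its centre more than 1 kb from every protein-coding transcription start site (TSS). Each also overlapped a p300 interval of the control or the bexarotene library by at least 1 bp. They make up 554 of the 5912 control myogenin intervals, and the 4 peak lists together held 43759 intervals. C2C12 is an established myoblast line derived from C3H mice. In the control group the cells were kept for 24 h in differentiation medium with horse serum, and in the bexarotene group 50 nM bexarotene was added to the same medium for the same 24 h. Each condition had 1 myogenin and 1 p300 library, so no difference between conditions had a replicate check and no p-value was computed. All intervals of shares below (95% Wilson) and of differences between shares (95% Newcombe) cover counting error over regions only. The files hold positions and no tag counts, so the depth behind each interval and its peak height are unknown, and cell identity was not checked.

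Myogenin is a muscle-specific basic helix-loop-helix factor that binds E-boxes as a dimer with an E protein and drives the terminal differentiation of myoblasts. p300 is a histone acetyltransferase that is recruited to active enhancers by many sequence-specific factors, among them the myogenic factors and AP-1. Bexarotene is a selective agonist of the retinoid X receptor (RXR), a nuclear receptor that binds repeats of AGGTCA alone or with partners such as the retinoic acid receptors, and it promotes the differentiation of myoblasts.

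The sequences of 14 of these regions show what they hold and what they lack. They are the 200 bp around the interval centre, 5′ to 3′ on the plus strand of mm9. Capitals mark E-boxes (CAGCTG or CACCTG, the latter read on the other strand as CAGGTG) and AP-1 elements (TGACTCA or TGAGTCA), searched on both strands. The first 3 were among the 5 members with the most E-boxes.
Xrcc5 chr1:72356410-72356609: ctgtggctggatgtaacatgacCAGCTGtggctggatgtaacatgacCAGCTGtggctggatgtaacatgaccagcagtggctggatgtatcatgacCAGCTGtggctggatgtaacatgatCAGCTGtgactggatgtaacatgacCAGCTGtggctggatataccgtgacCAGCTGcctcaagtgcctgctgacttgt
B3gnt7 chr1:88196816-88197015: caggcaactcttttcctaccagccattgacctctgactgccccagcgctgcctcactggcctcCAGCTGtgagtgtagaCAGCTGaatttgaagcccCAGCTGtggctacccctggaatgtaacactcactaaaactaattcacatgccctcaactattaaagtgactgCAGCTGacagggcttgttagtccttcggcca
Tuba1c chr15:98861239-98861438: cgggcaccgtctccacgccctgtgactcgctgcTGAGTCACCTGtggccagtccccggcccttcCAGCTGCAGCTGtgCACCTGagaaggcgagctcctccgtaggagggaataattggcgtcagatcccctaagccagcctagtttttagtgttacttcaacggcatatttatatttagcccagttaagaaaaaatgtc
The Xrcc5 region lay in an intron 2515 bp inside the gene, which encodes a DNA end-joining protein, and its 6 CAGCTG sites were spaced 25 bp apart, with 1 spacing of 50 bp, in a tandem repeat. The B3gnt7 region (a glycosyltransferase gene) lay in an intron of a non-coding gene, and 3 of its 4 E-boxes were within 50 bp of the centre. In the Tuba1c intron (an alpha-tubulin gene) the AP-1 element overlapped 1 of the 4 E-boxes.

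The next 4 regions held an E-box and an AP-1 element together, and all 4 overlapped p300 in the control library only.
Lif chr11:4197925-4198124: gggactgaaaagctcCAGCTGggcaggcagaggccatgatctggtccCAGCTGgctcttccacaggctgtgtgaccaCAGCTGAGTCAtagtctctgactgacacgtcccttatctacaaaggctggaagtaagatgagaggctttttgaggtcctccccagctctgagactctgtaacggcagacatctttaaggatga
Lmod2 chr6:24536936-24537135: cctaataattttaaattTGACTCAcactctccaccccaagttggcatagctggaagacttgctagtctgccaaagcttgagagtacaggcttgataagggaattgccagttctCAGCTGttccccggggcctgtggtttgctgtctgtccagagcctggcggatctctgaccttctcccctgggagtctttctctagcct
Thbs1 chr2:117830080-117830279: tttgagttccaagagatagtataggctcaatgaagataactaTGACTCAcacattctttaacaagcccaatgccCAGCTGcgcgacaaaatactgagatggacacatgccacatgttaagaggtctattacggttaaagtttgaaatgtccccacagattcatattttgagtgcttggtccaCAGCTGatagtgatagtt
Adamts6 chr13:105311822-105312021: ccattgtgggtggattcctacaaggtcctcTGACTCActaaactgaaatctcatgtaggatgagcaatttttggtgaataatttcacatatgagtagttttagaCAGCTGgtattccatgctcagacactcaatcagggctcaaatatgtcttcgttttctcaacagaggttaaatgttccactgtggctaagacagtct
They lay near Lif, a cytokine gene, Lmod2, which encodes a sarcomeric actin-filament protein, and Thbs1 and Adamts6, which encode an extracellular matrix glycoprotein and a secreted metalloprotease. All 4 were outside protein-coding genes, at 30.9, 10.7, 107 and 76.3 kb from the nearest TSS. Near Lif the AP-1 element overlapped 1 of the 3 E-boxes. Such an overlap occurred in 2 of the 64 members with both motifs within 100 bp of the centre, the Lif and the Tuba1c regions.

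The last 7 regions cover the other combinations: E-boxes without AP-1 in introns of Met (the hepatocyte growth factor receptor), Flnc (the muscle filamin), Notch2 and Rara (retinoic acid receptor alpha, a partner of RXR), AP-1 without an E-box in an intron of Tcf12 (an E protein), and neither motif upstream of Runx1, a Runx-family transcription factor, and Col1a1, a fibrillar collagen.
Met chr6:17466183-17466382: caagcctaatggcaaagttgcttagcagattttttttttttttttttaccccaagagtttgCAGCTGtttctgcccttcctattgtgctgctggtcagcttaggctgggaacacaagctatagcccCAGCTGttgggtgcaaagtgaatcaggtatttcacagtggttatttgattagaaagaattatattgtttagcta
Flnc chr6:29389145-29389344: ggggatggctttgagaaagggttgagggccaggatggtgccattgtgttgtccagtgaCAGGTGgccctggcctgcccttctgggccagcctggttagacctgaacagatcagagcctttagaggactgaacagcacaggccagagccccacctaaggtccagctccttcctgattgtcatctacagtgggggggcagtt
Notch2 chr3:97828259-97828458: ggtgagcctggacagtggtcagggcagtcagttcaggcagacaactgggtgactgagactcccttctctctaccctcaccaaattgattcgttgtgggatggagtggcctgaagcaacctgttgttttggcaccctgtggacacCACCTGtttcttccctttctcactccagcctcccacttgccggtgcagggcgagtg
Rara chr11:98794183-98794382: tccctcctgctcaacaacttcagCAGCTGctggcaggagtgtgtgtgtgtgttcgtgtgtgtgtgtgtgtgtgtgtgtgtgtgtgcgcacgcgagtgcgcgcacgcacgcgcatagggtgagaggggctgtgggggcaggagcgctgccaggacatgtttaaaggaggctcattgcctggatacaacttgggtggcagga
Tcf12 chr9:71949051-71949250: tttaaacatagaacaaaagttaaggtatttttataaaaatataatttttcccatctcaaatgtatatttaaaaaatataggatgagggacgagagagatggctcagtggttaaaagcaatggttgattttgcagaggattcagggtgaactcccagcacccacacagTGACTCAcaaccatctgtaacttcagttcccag
Runx1 chr16:93107003-93107202: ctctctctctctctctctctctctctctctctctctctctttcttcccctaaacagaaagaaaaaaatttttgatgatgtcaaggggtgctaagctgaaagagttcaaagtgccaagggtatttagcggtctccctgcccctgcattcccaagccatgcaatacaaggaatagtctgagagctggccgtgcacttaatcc
Col1a1 chr11:94774854-94775053: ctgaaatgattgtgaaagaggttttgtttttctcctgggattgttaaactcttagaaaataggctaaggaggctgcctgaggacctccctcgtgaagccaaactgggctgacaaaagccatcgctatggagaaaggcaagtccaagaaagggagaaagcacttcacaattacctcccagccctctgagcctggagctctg
p300 overlapped the Met, Rara and Runx1 regions in both libraries, the Flnc, Tcf12 and Col1a1 regions in control only and the Notch2 region in bexarotene only.

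The members were selected on overlaps of called intervals, so their absence from the bexarotene list and their p300 overlap describe the choice and are no finding. Of all control myogenin intervals, 49.4% had no overlapping bexarotene interval, 60.2% of those were over 1 kb from a TSS, and 31.5% of these 1759 distal intervals overlapped p300, against 36.7% of all control intervals. The members nearest to the TSS limit lay 1004 bp (Adamts6), 1017 bp (Tuba1c) and 1019 bp (Ppp1r14b) away, and the nearest excluded intervals lay at 930 bp (Map2k3), 915 bp (Hnrnph1) and 914 bp (Pabpc1). Members near Dlgap4, Slc5a3 and Plcl2 were only 3, 7 and 7 bp from a bexarotene interval, while intervals near Ube2v2, Iffo1 and Ccdc88c were excluded for overlaps of 3, 11 and 13 bp. The smallest p300 overlap among members was 1 bp (B4galt6, Mc2r and Mical3), and the nearest excluded intervals lay 1 bp (Wdr81 and Gm5662) and 2 bp (Rassf8) from p300. These distances rest on reading the deposited starts as 0-based, and would shift by 1 bp if they are 1-based. Other sets of distal intervals serve for comparison: 1205 control-only intervals without p300, 1436 shared intervals with p300 (called in control and overlapped by a bexarotene interval), and 1046 bexarotene-only intervals with p300.

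p300 was called in both libraries at about as many members as in control alone. It was called in control only at 256 members (46.2%, 42.1 to 50.4), in both at 259 (46.8%, 42.6 to 50.9) and in bexarotene only at 39 (7.04%, 5.19 to 9.48). Thus of the 515 members with p300 in control, 50.3% (46.0 to 54.6) also had p300 in the bexarotene library, although myogenin was not called there. Across all 22051 control p300 intervals, 32.7% were overlapped by a bexarotene p300 interval. The corresponding share was 67.7% (65.1 to 70.2) at shared intervals, a difference of -17.4 percentage points for the members (-22.4 to -12.4). At bexarotene-only intervals it was 53.5% (50.3 to 56.6), and the difference of -3.16 points (-8.47 to 2.17) had an interval that included 0. The control p300 list was the longer one, with 22051 intervals against 9154 in bexarotene, and the depth of the libraries is not known from these files, so a p300 interval called in control alone cannot be told apart from one that fell below the calling limit in bexarotene.

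**Figure D1:**
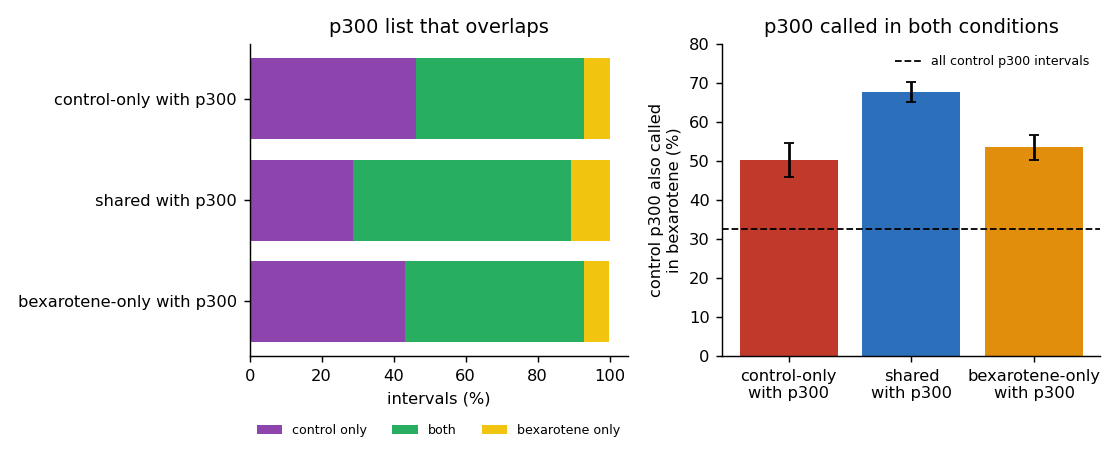
Left, share of distal myogenin intervals (%) whose p300 overlap came from the control list only, both lists or the bexarotene list only, for the members and the 2 other sets with p300. Right, of intervals with p300 in control, the share (%) that also had p300 in bexarotene, with 95% Wilson intervals as error bars and a dashed line at 32.7% for all control p300 intervals. The members' bar (50.3%) lies below that of the shared intervals (67.7%).

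The p300 intervals under the members were wide. The 515 members with control p300 overlapped 512 distinct control p300 intervals, whose median length was 332 bp (quartiles 204 and 496), against 230 bp for all control p300 intervals. This compares intervals that overlap something with all intervals, and a wider interval overlaps more by its width alone. Where p300 was called in both libraries the control p300 interval had a median of 387 bp, and 8.49% were at the smallest length of the list. Where it was called in control only the median was 262 bp and 28.5% were at the smallest length. The share at the smallest length with both calls minus that with control only was -20.0 points (-26.5 to -13.5). At the members with both calls the control p300 interval was longer than the bexarotene one in 231 of 259 cases (89.2%), by a median of 108 bp. This was not particular to them: over all 7202 overlapping p300 pairs it was longer in 90.0%, by a median of 109 bp.

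Myogenin and p300 were less closely centred at the members than in the other sets. The myogenin centre lay a median of 81.0 bp from the centre of the control p300 interval, compared with 56.0 bp at shared and 69.0 bp at bexarotene-only intervals. The centres were more than 100 bp apart at 210 of 515 members (40.8%), against 24.3% of shared intervals (a difference of 16.5 points, 11.6 to 21.3) and 33.1% of bexarotene-only intervals (7.72 points, 2.58 to 12.9). Median control p300 lengths were 332, 332 and 303 bp in the 3 sets. p300 covered the whole myogenin interval at 215 members (38.8%) and less than 50% of it at 121 (21.8%). Of the 1205 control-only distal intervals without p300, 128 (10.6%) had a p300 interval within 200 bp, so the limit between both groups is not sharp.

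**Figure D2:**
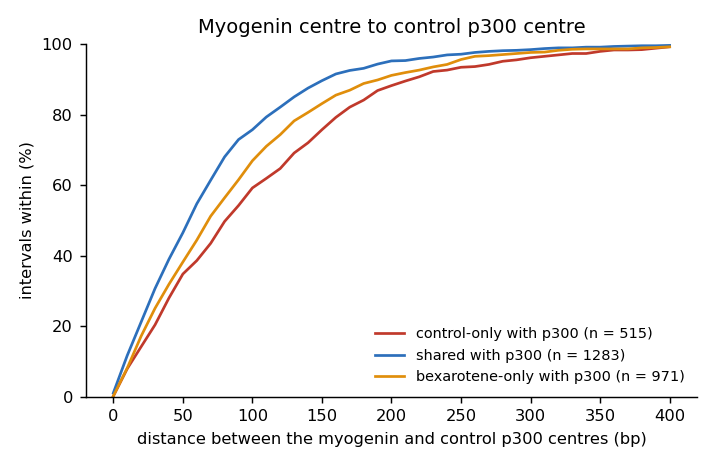
Cumulative share of distal myogenin intervals (%) by the distance in bp between the myogenin centre and the centre of the overlapping control p300 interval, for members (n = 515), shared (n = 1283) and bexarotene-only (n = 971) intervals. The curve of the members runs below both others, with 34.8% of members within 50 bp against 46.5% and 38.2%.

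E-boxes were more frequent at the centres of the members than in their flanks, but less so than where myogenin was called in both conditions. An E-box lay within 50 bp of the centre in 191 of 554 members (34.5%, 30.6 to 38.5), against 11.2% of windows of the same size 2 kb away, a ratio of 3.07. The share was 64.7% at shared intervals (difference -30.2 points, -34.8 to -25.5), 53.4% at bexarotene-only intervals (-19.0 points, -23.8 to -13.9) and 47.7% over all control intervals. At control-only intervals without p300 it was 34.8%, and the difference was -0.295 points (-5.01 to 4.54). That last comparison depended on the window and the motif: with 100 bp to either side the share was 57.2% against 50.6%, a difference of 6.60 points (1.58 to 11.5), and over the whole interval it was 56.0% against 48.8%, a difference of 7.16 points (2.13 to 12.1). With any CANNTG within 50 bp the difference was 6.34 points (1.40 to 11.2).

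The GC-core form accounted for most of the rise at the centre. CAGCTG was found within 50 bp in 26.0% of members, 6.77 times the flanking share of 3.84%, and CACCTG in 10.3%, 1.32 times its flanking share of 7.77%. CACCTG was found in 13.9% of control-only intervals without p300 (-3.65 points for the members, -6.72 to -0.294) and 18.2% of shared intervals (-7.96 points, -11.0 to -4.56). At bexarotene-only intervals it was found in 11.7% (-1.37 points, -4.45 to 1.97), a difference whose interval included 0. CAGCTG made up 158 of the 218 E-box sites (72.5%), compared with 81.7% at bexarotene-only intervals (difference -9.22 points, -16.1 to -2.92). The share was 77.5% at shared intervals (a difference of -5.00 points) and 65.4% at control-only intervals without p300 (7.11 points, -0.279 to 14.0), and the intervals of both differences include 0. Clusters of E-boxes were infrequent: of the 310 members with an E-box anywhere in the interval, 82 (26.5%) had 2 or more, against 34.7% at control-only intervals without p300 (-8.24 points, -14.3 to -1.86), 58.3% at shared and 38.2% at bexarotene-only intervals, whose lengths differ. Among intervals of the smallest length of their list with an E-box, a comparison added after seeing the data, the shares were 20.4% of 201 members, 31.4% without p300 (-11.0 points, -17.7 to -3.60), 34.6% at shared (-14.2 points, -21.6 to -6.29) and 29.9% at bexarotene-only intervals (-9.52 points, -16.5 to -1.98). E-box density within 40 bp of the centre was 0.431 sites per 100 bp, 3.57 times that at 240 to 400 bp, while the ratio was 6.88 at shared and 5.54 at bexarotene-only intervals.

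Most members were as short as the peak caller allows, which bears on these shares. Of the members, 397 (71.7%, 67.8 to 75.3) were at the smallest length of 172 bp, compared with 80.0% of control-only intervals without p300, 27.6% of shared and 57.8% of bexarotene-only intervals. The smallest length was taken per list, and for the bexarotene-only intervals it was 168 bp. Among intervals of the smallest length alone, a split chosen after seeing the data, the E-box share was 33.0% in members, 57.3% in shared and 48.1% in bexarotene-only intervals. The differences there were -24.3 points (-30.9 to -17.5) and -15.1 points (-21.1 to -8.91). Among longer intervals the member share was 38.2%, and the differences were -29.3 points (-37.0 to -21.0) and -22.6 points (-31.0 to -13.5). The longest members lay near Ppp1r14b (679 bp, in its intron), BC032203 (569 bp), Dad1 (525 bp), Kank1 (506 bp) and Gm10293 (485 bp), and p300 was called in both libraries at the first 4 of these 5.

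AP-1 elements were more frequent in the members than in the control-only intervals without p300. AP-1 is the dimer of Fos and Jun proteins. TGACTCA or TGAGTCA lay within 100 bp of the centre in 105 members (19.0%, 15.9 to 22.4), 5.17 times the flanking share of 3.66%. It was found in 7.39% of control-only intervals without p300, a difference of 11.6 points (8.12 to 15.3), and in 10.4% of all control intervals. The difference was 12.4 points (8.50 to 16.8) among intervals of the smallest length and 7.71 points (0.490 to 15.5) among longer ones. The shares at shared (17.9%) and bexarotene-only intervals (21.9%) differed from the members by 1.06 points (-2.62 to 5.01) and -2.94 points (-6.95 to 1.28), and both intervals include 0. Since p300 overlap was part of the choice, this compares intervals with and without p300 in 1 myogenin library and not the conditions.

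**Figure D3:**
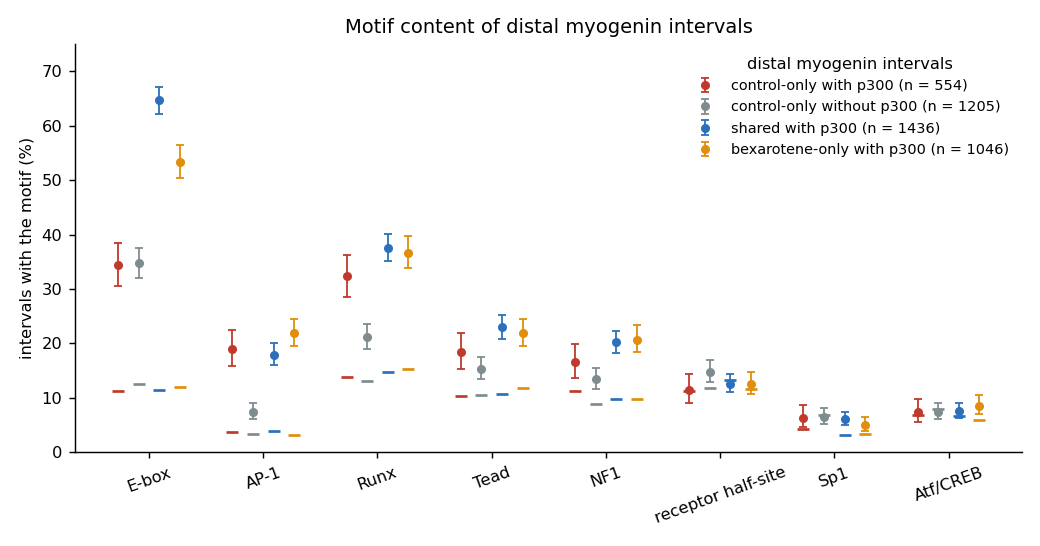
Share of distal myogenin intervals (%) with each motif, within 50 bp of the centre for the E-box and within 100 bp for the others, in the 4 sets of intervals. Points show the share with its 95% Wilson interval and short dashes the share in windows of the same size 2 kb to either side. Members match the control-only intervals without p300 in the E-box (34.5% and 34.8%) and stand above them in AP-1 (19.0% and 7.39%) and Runx (32.3% and 21.2%).

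Runx elements showed a difference of similar size. TGTGGT or its complement ACCACA, bound by Runx factors, was within 100 bp in 179 members (32.3%), 2.32 times the flanking 13.9%, against 21.2% of control-only intervals without p300 (a difference of 11.1 points, 6.60 to 15.6) and 37.6% of shared intervals (-5.29 points, -9.83 to -0.589). The difference from bexarotene-only intervals was -4.40 points (-9.19 to 0.525). GGAATG or CATTCC, the element of Tead factors, was present in 18.4% of members against 15.4%, a difference of 3.06 points whose interval included 0, and in 23.0% of shared intervals (-4.57 points, -8.32 to -0.537) and 21.9% of bexarotene-only intervals (-3.48 points, -7.46 to 0.714). TTGGCA or TGCCAA, an NF1 element, was present in 16.6% against 13.4% (3.16 points, -0.358 to 6.95), in 20.2% of shared intervals (-3.59 points, -7.17 to 0.291) and in 20.7% of bexarotene-only intervals (-4.14 points, -7.98 to -0.0673). GGGCGG or CCGCCC, bound by Sp factors, was present in 6.32% of members and 4.21% of their flanks, against 10.9% of all control intervals. Its share was 6.56% at control-only intervals without p300, 6.13% at shared and 5.07% at bexarotene-only intervals. The differences of the members from these sets of distal intervals had intervals that included 0. AGGTCA or TGACCT, a single half-site of the elements of RXR and other nuclear receptors, was found in 63 members (11.4%), 1.02 times the flanking share of 11.2%. It was present in 14.8% of control-only intervals without p300 and 12.6% of bexarotene-only intervals, and both differences had intervals that included 0. Repeats of the half-site, which RXR binds, were not searched, so their frequency is not known from these matches. The Mef2 element was found in 3.43% of members and 2.75% of their flanks. These matches describe letters in a window and not bound sites.

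E-boxes and AP-1 elements occurred together in a minority of the members. Of the 317 members with an E-box within 100 bp, 64 (20.2%) also had AP-1, and of the 237 without one 17.3% had it, a difference of 2.89 points (-3.80 to 9.30). The 64 regions with both were 11.6% of the members, 4.48% of control-only intervals without p300 and 15.2% of bexarotene-only intervals. None of the E-box, AP-1, Runx and Tead elements was found within 100 bp in 106 members (19.1%), against 33.0% without p300, 3.90% of shared and 9.85% of bexarotene-only intervals.

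The central rise in density was 2.62-fold for AP-1 sites and 3.57-fold for E-boxes. AP-1 density within 40 bp of the myogenin centre was 0.0948 sites per 100 bp against 0.0361 at 240 to 400 bp, and the ratio was 1.67 at control-only intervals without p300, 5.32 at shared and 4.75 at bexarotene-only intervals. Of the 168 members with control p300 and an AP-1 site within 200 bp, the nearest site was a median of 83.5 bp from the myogenin centre and 58.5 bp from the p300 centre. The site was nearer to the p300 centre in 90 and nearer to the myogenin centre in 77 of them, and the share nearer to p300 (53.9%, 46.3 to 61.3) had an interval that included 50%. Of the 358 with an E-box, the medians were 48.0 bp to myogenin and 52.5 bp to p300, and 200 were nearer to the myogenin centre against 155 nearer to p300 (43.7%, 38.6 to 48.9). The windows were set on the myogenin centre, which favours sites nearer to it, so 50% is not a neutral mark for either motif. The shares of members with an E-box and with AP-1 also varied with how closely the centres lay together, a split made after seeing the data. With p300 centred within 50 bp, 43.0% of 179 members had an E-box within 50 bp and 29.1% had AP-1 within 100 bp. With p300 centred more than 100 bp away the shares were 27.6% and 11.9% of 210, so the differences were 15.4 points (5.88 to 24.6) and 17.1 points (9.17 to 25.1).

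**Figure D4:**
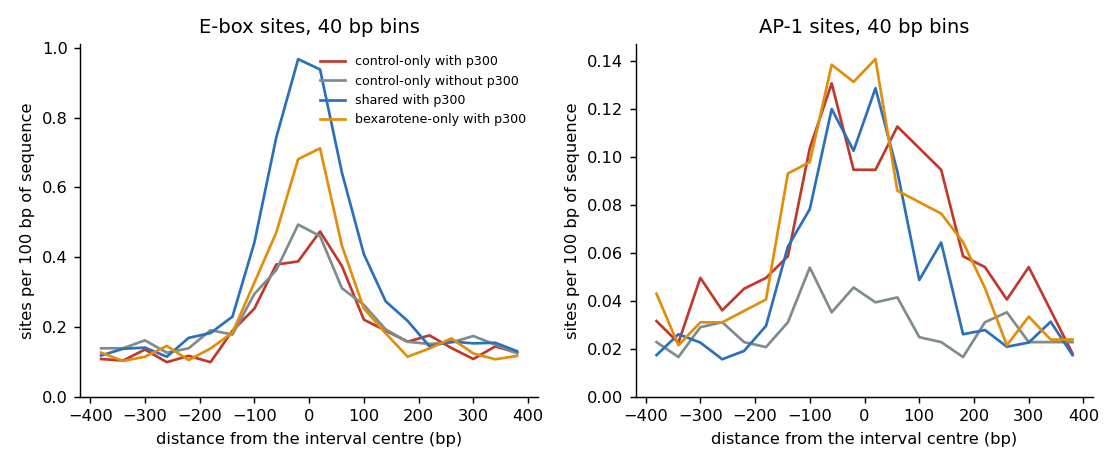
Density of E-box sites (left) and AP-1 sites (right), in sites per 100 bp of sequence and in bins of 40 bp, by distance in bp from the centre of distal myogenin intervals of the 4 sets. The E-box peak of the members is as low as that of control-only intervals without p300, and their AP-1 profile stands above that set and is broader than at shared intervals.

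Of 16 motifs compared between members with p300 in both libraries and in control only, 1 had a difference whose interval excluded 0. This was TATAAA or its complement TTTATA, found within 100 bp in 11.6% and 5.86%, a difference of 5.72 points (0.821 to 10.7). The intervals were not adjusted for the 16 comparisons, and the forms of the E-box among the motifs overlap one another. E-box shares were 34.0% and 33.6%, a difference of 0.383 points (-7.75 to 8.50). AP-1 was present in 22.4% and 16.0% (6.38 points, -0.444 to 13.1) and Runx in 36.3% and 28.9% (7.39 points, -0.710 to 15.3), and both intervals include 0. The 39 members with p300 in bexarotene only had an E-box in 17 cases (43.6%, 29.3 to 59.0).

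The members lay farther from promoters than the control-only intervals without p300. Their median distance from a protein-coding TSS was 27438 bp, compared with 10580 bp for control-only intervals without p300, 32900 bp for shared and 29656 bp for bexarotene-only intervals. Between 1 and 5 kb from a TSS lay 15.7% (12.9 to 19.0) of members and 36.4% (33.8 to 39.2) of those without p300, and beyond 100 kb lay 20.4% (17.3 to 24.0) and 10.7% (9.08 to 12.6). In the annotation 279 members (50.4%) were intergenic, 243 (43.9%) were in introns of protein-coding genes and 16 in introns of non-coding genes. The intergenic share was 43.7% at control-only intervals without p300 (6.71 points lower than in members, 1.69 to 11.7), 49.4% at shared and 44.3% at bexarotene-only intervals (6.10 points lower, 0.960 to 11.2). The intron share was 45.7%, 44.2% and 49.4% in the same sets, and only the last difference (-5.56 points, -10.6 to -0.421) had an interval that excluded 0. Another 7 were in exons of non-coding transcripts, 6 in UTRs and 3 in coding exons. In 211 of the 243 intronic members the host gene was also the gene with the nearest TSS. The 554 members had 505 nearest genes, 462 of them with 1 member, 37 with 2 and 6 with 3, and 33 members had another member within 10 kb. Median GC content of the central 200 bp was 49.0%, against 45.5% in the flanks.

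After bexarotene, myogenin was called within 10 kb about as often at the members as at the control-only intervals without p300. A bexarotene myogenin interval lay within 10 kb of 203 members (36.6%, 32.7 to 40.7), within 1 kb of 67 (12.1%), within 200 bp of 35 (6.32%, 4.58 to 8.66) and within 100 bp of 22. Within 10 kb, 128 members had a bexarotene-only and 110 a shared interval. The 10 kb share of the control-only intervals without p300 was 37.1%, a difference of -0.453 points (-5.24 to 4.44). In 31 members (5.60%) a bexarotene myogenin interval overlapped the same p300 interval. A bexarotene myogenin interval had the same nearest gene in 68.1% of members and 63.0% of control-only intervals without p300, a difference of 5.06 points (0.251 to 9.72). The 35 members with a bexarotene interval within 200 bp had an E-box within 50 bp of their centre in 6 cases (17.1%, 8.10 to 32.7), and the other 519 in 35.6% (31.6 to 39.9).

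**Figure D5:**
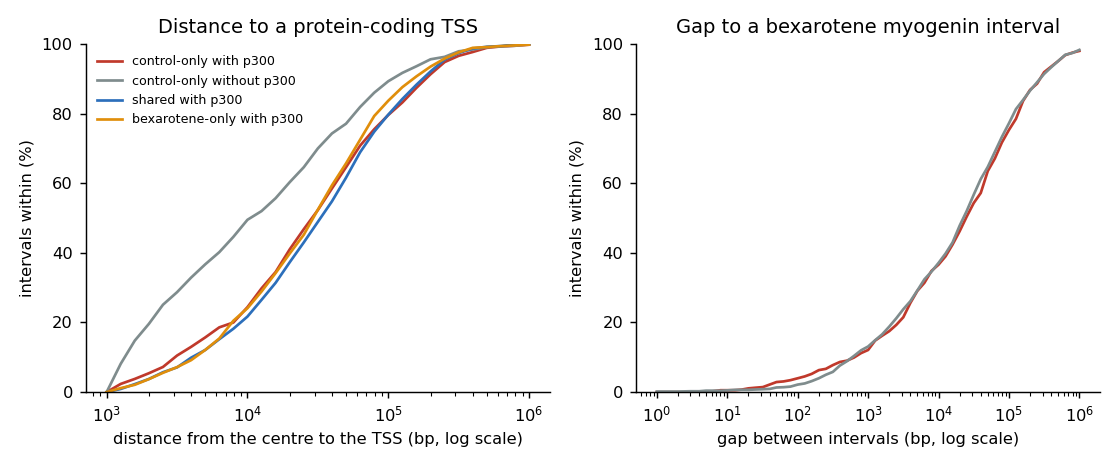
Cumulative share of distal intervals (%) by distance in bp to the nearest protein-coding TSS (left, all 4 sets) and by the gap in bp to the nearest bexarotene myogenin interval (right, members and control-only intervals without p300), both on log axes. On the left the members follow the other sets with p300 and lie farther out than those without; on the right both curves run close together.

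The member in the Rara intron (chr11:98794197-98794368) was 1 of these close pairs. Its centre lay 4.73 kb upstream of the nearest annotated TSS, and a bexarotene-only interval of 168 bp (chr11:98793997-98794164) lay 32 bp away over the same p300 interval, which was called in both libraries. Near Tgfbr2, which encodes a TGF-beta receptor, the member at chr9:116292401-116292615 was 94 bp from a bexarotene-only interval of 231 bp at chr9:116292710-116292940, over a p300 interval of 633 bp called in control only. Near Cdh13, a cadherin gene, the gap was 38 bp. In the intron of Eya4, which encodes a transcriptional co-activator and phosphatase, the gap was 159 bp, and the neighbour was a shared interval. In each of these pairs the 2 calls covered adjacent sequence and shared no base.

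Of the 554 members, 49 (8.84%) had their nearest TSS at a gene of 10 lists of muscle and signalling genes, against 8.80% of all control myogenin intervals. These lists were drawn up with earlier results of these data known, and assignment to the nearest TSS does not show which gene a region acts on. Extracellular matrix genes held 14 members at 10 genes (2.53%), against 0.930% of all control intervals, 0.664% of control-only intervals without p300, 1.32% of shared and 1.34% of bexarotene-only intervals. These were the collagen genes Col1a1, Col5a1 (3 members), Col5a2, Col6a3 and Col19a1, the proteases Adamts5 and Adamts6 (2 members each), the lysyl oxidase Loxl2, the hyaluronan synthase Has2, and Thbs1. p300 was called in control only at 9 of the 14 and in both libraries at 5. An E-box lay within 50 bp of the centre in 4 and AP-1 within 100 bp in 3, and 1 of the 14 had a bexarotene myogenin interval within 10 kb. Over all members, p300 was called in control only at 46.2% and in both libraries at 46.8%. The shares over all members were 34.5% for the E-box, 19.0% for AP-1 and 36.6% for a bexarotene interval within 10 kb. These counts are small and were not tested against those shares.

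Growth factor signalling genes held 10 members (1.81%, against 1.12% of all control intervals, 0.913% of control-only intervals without p300, 1.67% of shared and 2.20% of bexarotene-only intervals with p300), at Lif, Met and its ligand Hgf, Notch2 (2 members), Fst, Fstl1, Inhba, Tgfbr2 and Smad7. p300 was called in control only at 4, in both at 5 and in bexarotene only at 1 (46.2%, 46.8% and 7.04% of all members). The 2 Notch2 members were intronic, 10.9 and 12.5 kb from the TSS, the first with p300 in bexarotene only and the second with p300 in both libraries. The Hgf member (chr5:16107478-16107649, intronic) had no E-box, and its centre was 2 bp from that of a 679 bp control p300 interval. The Met member (chr6:17466197-17466368) had 2 CAGCTG sites within 50 bp and p300 of 644 bp in control and 521 bp in bexarotene.

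Myogenic regulator genes held 9 members (1.62%), against 1.29% of all control intervals, 1.74% of control-only intervals without p300, 1.95% of shared and 1.05% of bexarotene-only intervals. Tcf12, which encodes the E protein HEB, a dimer partner of the myogenic factors, had 3 in its introns with 3 different p300 states. The member at chr9:71709557-71709826 had an E-box within 50 bp and p300 in both libraries. The member at chr9:71746768-71746939 had an AP-1 element within 100 bp and p300 in bexarotene only, and that at chr9:71949065-71949236 had AP-1, no E-box and p300 of 780 bp in control only. Runx1 had 2 members, 128 and 281 kb upstream, both with p300 in both libraries and neither with an E-box. The others were at Runx3, Mef2d, Tead1 and Eya4. Contractile genes held only 2 members (0.361%, against 1.10% of all control intervals, 0.664% of control-only intervals without p300, 1.25% of shared and 1.15% of bexarotene-only intervals), near Lmod2 and in Flnc, both with an E-box within 50 bp and p300 in control only. Of all members, 34.5% had such an E-box and 46.2% had p300 in control only.

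The remaining lists held few members. Nuclear receptor genes had 4 (Rara, Ppara, Nr2f1 and Nr3c2), which were 0.722% against 0.457% of all control intervals and 0.830% of control-only intervals without p300. None of the 4 had an E-box within 50 bp of the centre, against 34.5% of all members with one. AP-1 and immediate early genes had 3 (Junb, Klf6 and Atf4), which were 0.542% against 0.880% of all control intervals and 1.49% of those without p300. All 3 had a bexarotene myogenin interval within 10 kb, as did 36.6% of all members. Excitation and membrane genes had 2 (Dysf and Bin1; 0.361% against 0.829% and 0.498%), fusion and adhesion genes 2 (Adam12 and Cdh13; 0.361% against 0.812% and 0.332%) and cell cycle genes 2 (E2f3 and Cdk6; 0.361% against 0.964% and 0.996%).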

How the data were processed

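The deposited files were 4 lists of peak positions (chromosome, start and end, with no other value), 1 each for myogenin and p300 in C2C12 myoblasts differentiated for 24 h with or without 50 nM bexarotene. Inputs and H3K27me3 were not used here. According to the study's methods and the submitters' processing notes, the authors aligned reads to mm9 (BWA for myogenin, Bowtie for p300), removed duplicates with Picard and called peaks in each library with HOMER, in its factor style with peaks extended to regions of variable length. Calls depend on depth, and a region missing from a list may lie just under its threshold.

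Starts were read as 0-based and are printed 1-based. The sources used here do not state the convention, and if the deposited starts are 1-based, every printed start is 1 bp too high and overlaps or gaps of 1 bp shift by 1 bp. Overlap was 1 bp. TSSs were the 46013 protein-coding transcript starts of GENCODE vM1 (mm9), and sequence came from the mm9 genome. Motifs were matched on both strands in Python 3.11.15 with pysam 0.24.0, with flanks 2 kb to either side. The 554 members, gene lists and motifs were chosen with earlier results of these data known. Named members were those nearest to a listed gene, the 10 with the most E-boxes, the 5 longest, and the 3 on either side of each threshold. Of those, 1 is not reported here. The scripts were tested on simulated data of 400 items in 7 steps, and all 7 were recovered. Alternatives were other overlap, TSS, p300, length, window, motif and distance settings.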

Additional observations from a re-analysis of the deposited data

How the results depend on the processing

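Of 116 alternative values for the number of members and 9 shares or differences, 100 stayed within the 95% interval of the main value (or within 1.5 times the main count), 16 did not, and none reversed a difference whose interval excluded 0. Only intervals longer than the smallest left 157 members, with an AP-1 difference from control-only intervals without p300 of 7.71 points and p300 in control only at 42.0%. p300 over at least 50% of the myogenin interval gave p300 in control only at 52.4%. A reciprocal overlap of 50% for shared intervals gave 725 members, 51.6% of them with a bexarotene interval within 10 kb and 65.1% at the smallest length, and a gap of 200 bp gave 32.4% within 10 kb. Nearness at 5 kb and 50 kb gave 29.1% and 63.5%. The E-box share was 56.0% over the whole interval, 57.2% within 100 bp, 26.0% for CAGCTG alone and 63.4% for any CANNTG. The E-box difference from control-only intervals without p300 was 7.16, 6.60 and 6.34 points for the whole interval, 100 bp and any CANNTG, so whether it included 0 depended on these choices. Reading the deposited starts as 1-based, chosen after seeing the data, gave 554 members with an E-box share of 34.8% and an AP-1 share of 19.1%. The difference from bexarotene-only intervals stayed between -22.6 and -14.4 points. Wider windows, looser motifs and longer distances can only raise a share. The reciprocal rule adds intervals that already overlap a bexarotene interval, and the 200 bp rule removes the members nearest to one. Both rules therefore move the share within 10 kb by construction. For the other shifts the cause was not tested. No paired analysis was possible because each condition had 1 library. Peak height and depth are unknown.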

Other observations

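Among chromosomes, the share of control-only distal myogenin intervals that overlapped p300 ranged from 18.8% on chromosome X (3 of 16) and 19.7% on chromosome 7 (13 of 66) to 46.6% on chromosome 16 (27 of 58), around 31.5% over all. The members were 48.9% (44.8 to 53.1) upstream and otherwise downstream of the nearest protein-coding TSS. The upstream share was 43.7% (41.0 to 46.6) at control-only intervals without p300, 44.5% (41.9 to 47.1) at shared and 42.2% (39.2 to 45.2) at bexarotene-only intervals. Members 10 to 50 kb from a TSS had an E-box within 50 bp in 40.4% of 223 cases (34.1 to 46.9), against 31.9% of 135 nearer members (24.6 to 40.1) and 29.6% of 196 farther ones (23.6 to 36.3). Members with and without a bexarotene myogenin interval within 10 kb had a Runx element within 100 bp in 26.1% (20.5 to 32.6) and 35.9% (31.1 to 41.0). TATAAA or TTTATA was less frequent within 100 bp of the member centres (8.66%) than in the flanks (13.2%), as it was in the other sets of distal intervals. These splits were chosen after seeing the data.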
